A study of Danio rerio with 8 samples.

Results

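The lens crystallin genes were taken as the identifiers whose symbol starts with *crya*, *cryba*, *crybb*, *crygm*, *crygn*, or *crygs* and names an alpha (*cryaa*, *cryab*), beta A, beta B, gamma M, gamma N, or gamma S crystallin. There were 56 of them among 32057 gene identifiers, namely 3 alpha, 7 beta A, 6 beta B, 34 gamma M, 2 gamma N, and 4 gamma S crystallins. The choice used symbols and no expression value. RNA was measured by SMART-seq, in which poly(A) RNA is copied into cDNA and amplified by PCR, in *sox10*+ cells sorted for the fluorescence of the *Tg(sox10:kikGR)* transgene from zebrafish embryos. Cells of *slc30a1* mutant embryos, homozygous for CRISPR/Cas9 alleles of both zinc transporter genes *slc30a1a* and *slc30a1b*, were set against cells of control siblings, at 2 and at 2.5 days post-fertilization (dpf). Each of the 4 groups had 2 libraries, and every library came from the transgenic line. The text of the study does not say which alleles or how many embryos went into a library. It describes a cross of *slc30a1a*+/-;*slc30a1b*-/- parents that was used to obtain more double mutants, and controls from that cross would also have lacked *slc30a1b*, but it does not say which cross gave these cells. Nothing in the labels states that the 2 libraries of a group came from separate clutches, so that the p-values measure only the spread between these libraries. The transgene, driven by *sox10* sequence, chose the cells, the labelled tissue is neural crest, and double mutants in the study had a small head and small eyes. How the embryos sorted for these libraries were recognised is not stated in the sources used here.

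Crystallins are the soluble proteins that fill the fibre cells of the lens and give it its refractive power. Alpha crystallins belong to the small heat shock proteins and act as chaperones, whereas beta and gamma crystallins share a fold of Greek key motifs and serve mainly as structural proteins. Gamma M crystallins are rich in methionine and have expanded in fishes. The lens forms from surface ectoderm and not from the neural crest, and its fibre cells begin to make beta and gamma crystallins on the first days of zebrafish development. RNA levels are given as FPKM, fragments mapped to a gene divided by transcript length and by the mapped fragments of the library, as the authors computed them, and levels of different genes are compared on this scale, which is per length. The 8 libraries summed to 609836 to 697012 FPKM with 22265 to 24327 genes above 0, and, with no counts in the tables, their depth is unknown. As a check of the labels, *slc30a1a* was at 5.96 and 7.06 FPKM in mutants, against 12.12 and 11.74 FPKM in controls, at 2 dpf, and at 5.44 and 4.98 FPKM in mutants, against 8.56 and 11.22 FPKM in controls, at 2.5 dpf. Both mutant libraries were below both controls at each stage, although the change did not pass the test (log2 fold change −0.79, standard error 0.18, limma adjusted p = 0.0676 at 2 dpf and −0.80, standard error 0.21, limma adjusted p = 0.243 at 2.5 dpf). The other target, *slc30a1b*, was at 0 to 0.14 FPKM in all 8 libraries. Of the neural crest markers, *sox10* was at 47.59 to 156.01 FPKM over the libraries and *crestin* at 0.18 to 0.51 FPKM.

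The crystallin RNA of the sorted cells was low in mutants at 2 dpf and varied from library to library at 2.5 dpf. Summed over the family, it was 37.2 and 147 FPKM in the mutant libraries, against 689 and 462 FPKM in the control libraries, at 2 dpf. The mutant mean was 91.9 ± 77.3 FPKM and the control mean was 576 ± 160 FPKM (SD, n = 2 each), so that the mutant mean was 16.0% of the control mean. At 2.5 dpf the sums were 33.5 and 211 FPKM in the mutant libraries, against 144 and 233 FPKM in the control libraries. These gave 122 ± 125 FPKM in mutants and 188 ± 63.3 FPKM in controls (SD, n = 2 each), or 64.7% of the control mean. The groups were apart at 2 dpf and overlapped at 2.5 dpf, where mutant replicate 2 lay between the control libraries. With 2 libraries in each group the smallest two-sided p of an exact permutation test is 0.333, and none was run. In sorted bulk RNA, fewer lens cells and less crystallin RNA per lens cell cannot be told apart. Crystallins made up between 0.00524% (mutant replicate 1 of 2.5 dpf) and 0.1% (control replicate 1 of 2 dpf) of the FPKM of a library.

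**Figure D1:**
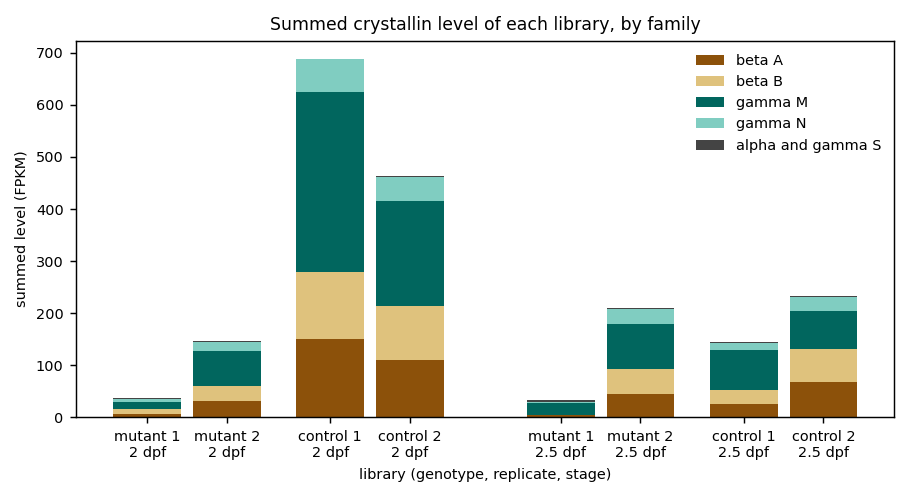
Summed FPKM of the crystallin genes in each of the 8 libraries (bars, from 0), split by family, with the mutant libraries left of the control libraries of their stage. The 2 control libraries of 2 dpf, at 689 and 462 FPKM, stand above the other 6, and mutant replicate 1 is the lowest library at either stage.

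The replicates of a genotype also differed from each other. The sum in mutant replicate 2 was 3.93 times that in mutant replicate 1 at 2 dpf and 6.29 times at 2.5 dpf, whereas in controls the ratio of replicate 2 to replicate 1 was 0.671 at 2 dpf and 1.62 at 2.5 dpf. Of 33 members ranked among the 4 libraries of 2 dpf, mutant replicate 1 had the lowest value in 30 and control replicate 1 the highest in 31. Of 27 members ranked at 2.5 dpf, mutant replicate 1 had the lowest value in 23, but the highest value fell to control replicate 2 in 12, to mutant replicate 2 in 8, to control replicate 1 in 6, and to mutant replicate 1 in 1. Most ranked members thus shared their lowest and their highest library at 2 dpf, and there was no common highest library at 2.5 dpf. The share of all genes with these extremes was not counted, and many members are near-identical *crygm2d* copies that may share reads. The sums of red blood cell and of retinal markers, given further below, had the same lowest and highest library at 2 dpf.

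Beta and gamma M crystallins made up most of the sum in every library. Beta crystallins contributed 41.6 and 41.2% in mutants, against 40.7 and 46.3% in controls, at 2 dpf. Gamma M crystallins contributed 36.8 and 46.5% in mutants, against 49.9 and 43.6% in controls, and gamma N crystallins 17.8 and 11.5% in mutants, against 9.25 and 10.0% in controls. Alpha and gamma S crystallins were at 2.04 and 1.77% in mutant replicate 1 and at less than 1% each in the other libraries of 2 dpf. At 2.5 dpf, beta crystallins contributed 16.2 and 44.4% in mutants, against 36.4 and 56.2% in controls, and gamma M crystallins contributed 64.5 and 40.8% in mutants, against 53.9 and 31.1% in controls. Mutant replicate 1 of 2.5 dpf was apart in this, since *crygm2d20* alone, a gamma M crystallin, held 24.1% of its crystallin sum and *crybb1* held 3.83%. In the other 7 libraries *crybb1* held 16.3 to 25.1%. *crygm2d20* was singled out after its values were seen.

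Of the 56 members, 46 were listed at 2 dpf, where 33 averaged 0.5 FPKM or more in the 4 libraries and were tested. The other 10 were listed only in the table of 2.5 dpf, namely *cryaba*, *crygm1*, *crygm2a*, *crygm2c*, *crygm2e*, *crygm2f*, *crygm3*, *crygm6*, *crygm7*, and *crygs1*, and 9 of these were at 0 in all 4 libraries there. *crygm2c* was at 0.19 FPKM in mutant replicate 1. Mutant and control libraries were compared with limma on log2(FPKM + 1) over all genes with such a mean, and a gene was called at a Benjamini-Hochberg adjusted p under 0.05. limma called 18 of the 33 members lower in mutants at 2 dpf and 0 higher. Of all 15453 genes tested, it called 0.997% lower and 2.52% higher. At an unadjusted p under 0.05 there were 30 members, against 24.6% of all genes tested. The median log2 fold change of the 33 members was −2.27, with 32 of them below 0, and that of all genes tested was 0.18, with 28.1% below 0. The filter used the mean of the same libraries, so that members high only in controls could pass it, and these counts are a description. Without the filter on low values, all 46 listed members had a median of −1.89, with 41 of them below 0. The mutant libraries lay wholly below the control libraries in 31 of the 33 tested members and wholly above in 0, where the shares over all genes tested were 12.1% and 44.8%. Over all 46 listed members, they lay wholly below in 35 and wholly above in 2 (*crygs3* and *crygs4*, which were under the filter). By family, limma called 3 of 5 beta A, 3 of 3 beta B, 11 of 22 gamma M, and 1 of 2 gamma N members tested lower, and 0 of 1 alpha members, while none of the gamma S members passed the filter.

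**Figure D2:**
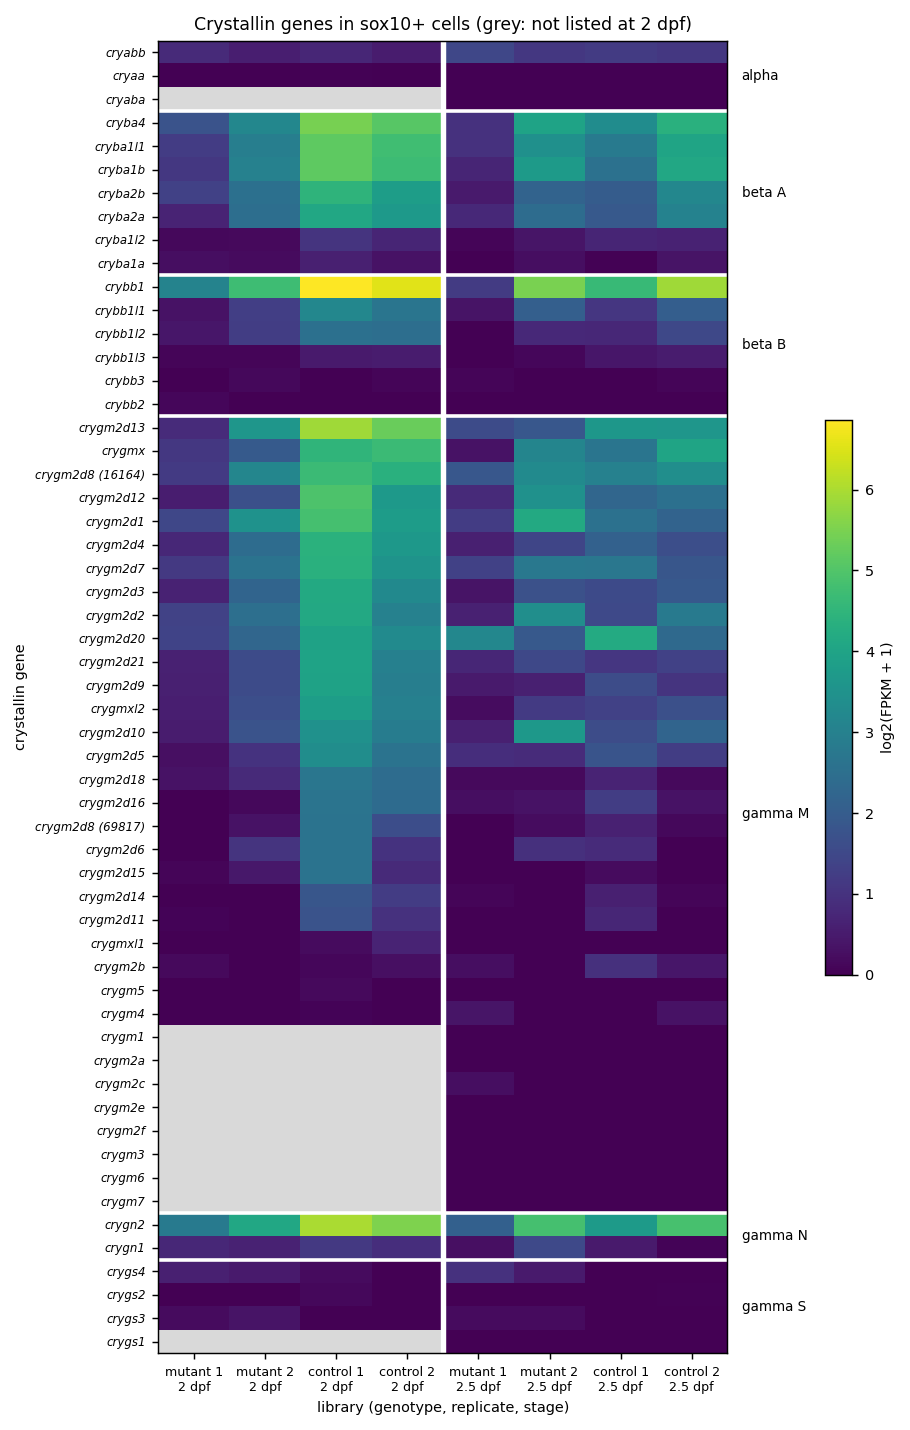
log2(FPKM + 1) of each of the 56 crystallin genes (rows, by family and then by control level at 2 dpf) in the 8 libraries (columns, mutants left of controls within a stage), with grey cells for identifiers that are listed only at 2.5 dpf. The brightest rows in the control libraries of 2 dpf are *crybb1*, *crygn2*, and *crygm2d13*, and the alpha and gamma S rows are dark throughout.

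Of the alpha crystallins, *cryaa* and *cryaba* were at or near 0 where listed, and *cryabb* was low. *cryaa*, which encodes the alpha A chaperone subunit of the lens, was at 0 and 0 FPKM in mutants, against 0.02 and 0 FPKM in controls, at 2 dpf, and at 0 in the 4 libraries of 2.5 dpf, as was *cryaba*, one of the zebrafish copies of alpha B. The other alpha B copy, *cryabb*, was at 0.76 and 0.49 FPKM in mutants, against 0.66 and 0.45 FPKM in controls, at 2 dpf, and at 1.76 and 1.18 FPKM in mutants, against 1.28 and 1.17 FPKM in controls, at 2.5 dpf. It overlapped between genotypes at both stages. It was not called at 2 dpf (log2 fold change 0.06, standard error 0.16, limma adjusted p = 0.839), and the sign was negative after median-ratio rescaling and after quantile normalization. Alpha B crystallin is known as a stress protein of muscle and other tissues as well as of the lens.

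Among the beta A crystallins, which are structural subunits that associate with other beta crystallins, *cryba4* was at 2.38 and 8.11 FPKM in mutants, against 42.62 and 33.05 FPKM in controls, at 2 dpf. The groups did not overlap, and the gene was called (log2 fold change −2.80, standard error 0.44, limma adjusted p = 0.0311). *cryba1l1* was at 1.31 and 6.69 FPKM in mutants, against 35.03 and 26.04 FPKM in controls (log2 fold change −2.89, standard error 0.52, limma adjusted p = 0.042). *cryba1b* was at 1.16 and 7.13 FPKM in mutants, against 34.76 and 25.04 FPKM in controls. Its log2 fold change of −2.86 missed the threshold (standard error 0.57, limma adjusted p = 0.0526), although the groups did not overlap. The remaining beta A genes, *cryba2a*, *cryba2b*, *cryba1l2*, and *cryba1a*, also had both mutant libraries below both control libraries, and of these *cryba2b* was called.

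The beta B crystallin *crybb1*, a basic beta subunit, had the highest mean of the family over the 8 libraries. It was at 7.46 and 25.86 FPKM in mutants, against 115.79 and 93.3 FPKM in controls, at 2 dpf (log2 fold change −2.80, standard error 0.50, limma adjusted p = 0.0403). *crybb1l1* was at 0.27 and 1.4 FPKM in mutants, against 8.1 and 5.41 FPKM in controls (log2 fold change −2.13, standard error 0.34, limma adjusted p = 0.0311). *crybb1l2* was at 0.33 and 1.38 FPKM in mutants, against 4.81 and 4.59 FPKM in controls (log2 fold change −1.68, standard error 0.29, limma adjusted p = 0.037). In all 3 genes both mutants were below both controls. The other beta B genes were low, with *crybb1l3* at 0.07 and 0.06 FPKM in mutants, against 0.41 and 0.43 FPKM in controls, and *crybb2* and *crybb3* at no more than 0.11 FPKM at 2 dpf. *crybb2*, a major beta subunit of the adult mammalian lens, was at 0.08 FPKM in mutant replicate 1 and at 0 in the other libraries of 2 dpf.

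The gamma M crystallins were the most numerous family. *crygm2d13* was at 0.79 and 11.14 FPKM in mutants, against 58.45 and 38.16 FPKM in controls, at 2 dpf. It had the largest difference of the family on this scale, a log2 fold change of −3.37, but its mutant libraries were far apart and it was not called (standard error 0.81, limma adjusted p = 0.0776). *crygm2d12* was at 0.46 and 2.21 FPKM in mutants, against 30.04 and 11.82 FPKM in controls (log2 fold change −3.20, standard error 0.51, limma adjusted p = 0.0311). *crygmx*, which lies outside the *crygm2d* array, was at 1.16 and 2.83 FPKM in mutants, against 21.66 and 24.76 FPKM in controls (log2 fold change −3.07, standard error 0.29, limma adjusted p = 0.00736). *crygm2d16* had the smallest p of the family. It was at 0 and 0.1 FPKM in mutants, against 5.21 and 4.32 FPKM in controls (log2 fold change −2.45, standard error 0.17, limma adjusted p = 0.00271), and with mutants so near 0 the fold change depends on the pseudocount. Of the called genes with a large difference, *crygm2d21* was at 0.54 and 1.99 FPKM in mutants, against 14.84 and 6.9 FPKM in controls (log2 fold change −2.38, standard error 0.42, limma adjusted p = 0.0402). *crygm2d9* was at 0.52 and 1.95 FPKM in mutants, against 14.58 and 6.65 FPKM in controls (log2 fold change −2.37, standard error 0.43, limma adjusted p = 0.0413). *crygm2d1* was at 1.78 and 10.37 FPKM in mutants, against 27.74 and 12.97 FPKM in controls, and was not called.

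The symbol *crygm2d8* stood for a pair of identifiers, which were kept apart. ENSDARG00000116164 was at 1.24 and 7.85 FPKM in mutants, against 24.75 and 19.58 FPKM in controls, at 2 dpf (log2 fold change −2.37, standard error 0.58, limma adjusted p = 0.0826). ENSDARG00000069817, which the RefSeq names of the assembly GRCz12tu list as *crygm2d17*, was at 0 and 0.27 FPKM in mutants, against 5.16 and 2.08 FPKM in controls (log2 fold change −1.95, standard error 0.33, limma adjusted p = 0.0369). The *crygm2d* genes are near-identical copies, so that reads may have been divided among them in the authors' estimation, and the value of a single copy is uncertain.

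Gamma N crystallins stand between the beta and gamma families in gene structure. *crygn2* had the second-highest mean of all members, and was at 5.93 and 16.3 FPKM in mutants, against 62.49 and 45.54 FPKM in controls, at 2 dpf (log2 fold change −2.31, standard error 0.42, limma adjusted p = 0.0421). *crygn1* was at 0.7 and 0.57 FPKM in mutants, against 1.22 and 0.85 FPKM in controls. The groups did not overlap but were close, and the gene was not called (log2 fold change −0.31, standard error 0.16, limma adjusted p = 0.288). The gamma S crystallins, which in mammals are made mostly in the later lens cortex, were at the bottom of the range. *crygs4* was at 0.52 and 0.41 FPKM in mutants, against 0.16 and 0 FPKM in controls, and *crygs3* was at 0.14 and 0.29 FPKM in mutants, against 0 and 0 FPKM in controls. Both had the mutant libraries above the control libraries at 2 dpf and again at 2.5 dpf, where *crygs4* was at 0.98 and 0.41 FPKM in mutants and listed at 0 in both controls, and both were under the filter of the test. *crygs2* was at 0.11 FPKM in control replicate 1 and at 0 in the other libraries of 2 dpf.

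**Figure D3:**
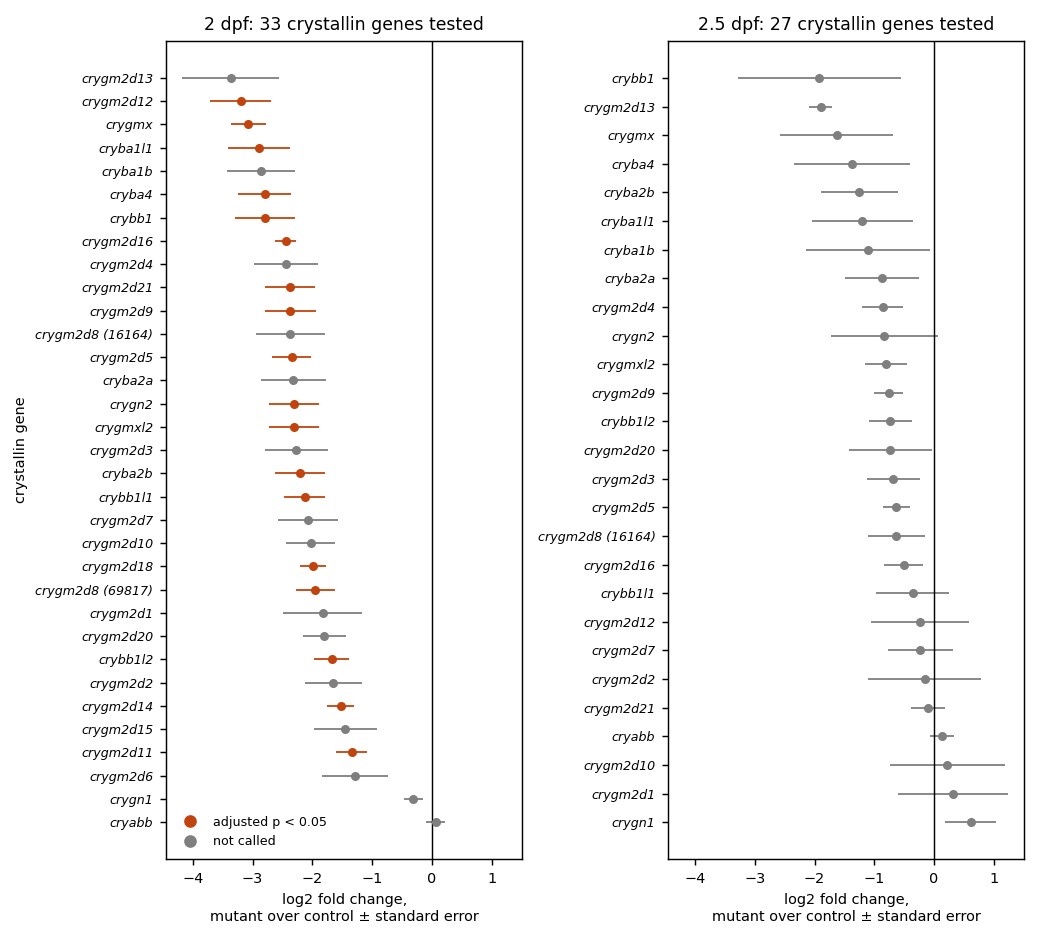
log2 fold change of mutants over controls with its standard error (points and bars) for the members tested at 2 dpf (left, 33 genes) and at 2.5 dpf (right, 27 genes), in the order of the fold change. Filled red points are genes called at an adjusted p under 0.05, 18 at 2 dpf and 0 at 2.5 dpf, and the bars are wider for most genes at 2.5 dpf.

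Of the 29 members with a control mean of at least 2 FPKM at 2 dpf, the mutant mean was between 1.05% (*crygm2d16*) and 29.8% (*crygm2d1*) of the control mean. These were picked by their control level, and the percentages are a description. The 5 beta A members among them fell within 13.1 to 18.5%, the 3 beta B members within 12.4 to 18.2%, *crygn2* was at 20.6%, and the 20 gamma M members covered the whole range. All 29 had a higher value in mutant replicate 2 than in mutant replicate 1.

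The number of calls at 2 dpf depended on single libraries and on settings. Calls changed with each library left out and were lost without either control replicate, where the remaining control took its spread from the mutants. Without mutant replicate 1 the members' median was −1.60, against 0.19 over all genes tested, and without mutant replicate 2 it was −2.81, against 0.16. Without control replicate 1 it was −1.88, against 0.17, and without control replicate 2 it was −2.53, against 0.18. With a pseudocount of 0.1 limma called 9 members and 438 of 15453 genes. It called 7 members and 236 genes after quantile normalization, and 7 members and 293 of 16703 genes in a fit of all 8 libraries. Without the filter it called 1 member and 47 of 25884 genes. The median of the tested members stayed between −3.03 and −1.60 over these settings. Median-ratio rescaling moved the median of all genes to −0.02 and that of the members to −2.44, with 21 members and 456 of 15390 genes called.

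At 2.5 dpf, 27 of 56 members passed the filter and limma called 0 of them, as it called 0 of all 17379 genes. At an unadjusted p under 0.05 there were 4 members, and 12.2% of all genes tested. These were *crygm2d13*, *crygm2d9*, *crygm2d5*, and *crygm2d4*, named here because they were so few. The median log2 fold change of the 27 was −0.73, with 23 below 0, against 0.02 and 48.1% below 0 over all genes tested. The mutant libraries lay wholly below the control libraries in 6 of the 27 tested members and wholly above in 0, where the shares over all genes tested were 19.2% and 24.3%. Over all 56 members, some of them at 0 in every library, they lay wholly below in 10 and wholly above in 2 (*crygs3* and *crygs4*). The median turned on mutant replicate 1. It was 0.04 without that library and −1.33 without mutant replicate 2.

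*crygm2d13* had the smallest p of the members at 2.5 dpf, at 1.95 and 2.65 FPKM in mutants, against 11.45 and 11.09 FPKM in controls (log2 fold change −1.90, standard error 0.20, limma adjusted p = 0.0705). Both genotypes had replicates close together. *crybb1*, by contrast, was at 1.28 and 43.87 FPKM in mutants, against 23.5 and 58.44 FPKM in controls, and mutant replicate 2 was above control replicate 1 (log2 fold change −1.92, standard error 1.36, limma adjusted p = 0.645). *crygn2* was at 3.34 and 27.67 FPKM in mutants, against 12.35 and 28.47 FPKM in controls (log2 fold change −0.83, standard error 0.90, limma adjusted p = 0.775). Without mutant replicate 1 the log2 fold change was 0.23 for *crybb1* and 0.53 for *crygn2*. *cryba4* was at 0.98 and 14.73 FPKM in mutants, against 9.15 and 19.56 FPKM in controls.

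Some gamma M genes went the other way in mutant replicate 2 of 2.5 dpf. *crygm2d1* was at 1.31 and 17.1 FPKM in mutants, against 4.86 and 3.55 FPKM in controls, and *crygm2d10* was at 0.51 and 11.76 FPKM in mutants, against 2.04 and 3.66 FPKM in controls. Mutant replicate 2 was thus the highest and mutant replicate 1 the lowest library for both. *crygm2d12* showed the same order, at 0.77 and 10.07 FPKM in mutants, against 3.77 and 4.76 FPKM in controls. *crygm2d20* followed yet another order, at 8.08 and 2.75 FPKM in mutants, against 17.25 and 4.1 FPKM in controls, so that it was high in replicate 1 of either genotype. *crygn1* was at 0.21 and 1.85 FPKM in mutants, against 0.41 and 0.05 FPKM in controls.

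Most of the gamma crystallins lie in a single array on chromosome 9 in the RefSeq gene order of GRCz12tu, and only the order is used, since the reads were aligned to GRCz11. From *crygm7* to *crygs3* the array fell into 3 stretches of different level. The first, from *crygm7* to *crygm2e*, held 8 members, none of which exceeded 0.93 FPKM in any library. The middle stretch, from *crygm2d13* to *crygm2d1*, held 20 members, whose control means at 2 dpf were 1.7 to 48.3 FPKM with a median of 10.8 FPKM. Their mutant means at 2 dpf were 0 to 6.07 FPKM with a median of 1.3 FPKM. The last stretch, from *crygm2f* to *crygs3*, held 5 members, none above 0.98 FPKM. In the middle stretch the mutant libraries lay wholly below the control libraries in 19 of 20 members at 2 dpf and in 6 of 20 at 2.5 dpf, where the shares over all genes tested were 12.1% and 19.2%. Not all 20 passed the filter of the test at 2.5 dpf. The bounds of the stretches follow the levels in these libraries, so that the middle one holds members high in controls of 2 dpf. These counts are therefore a description and no test.

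**Figure D4:**
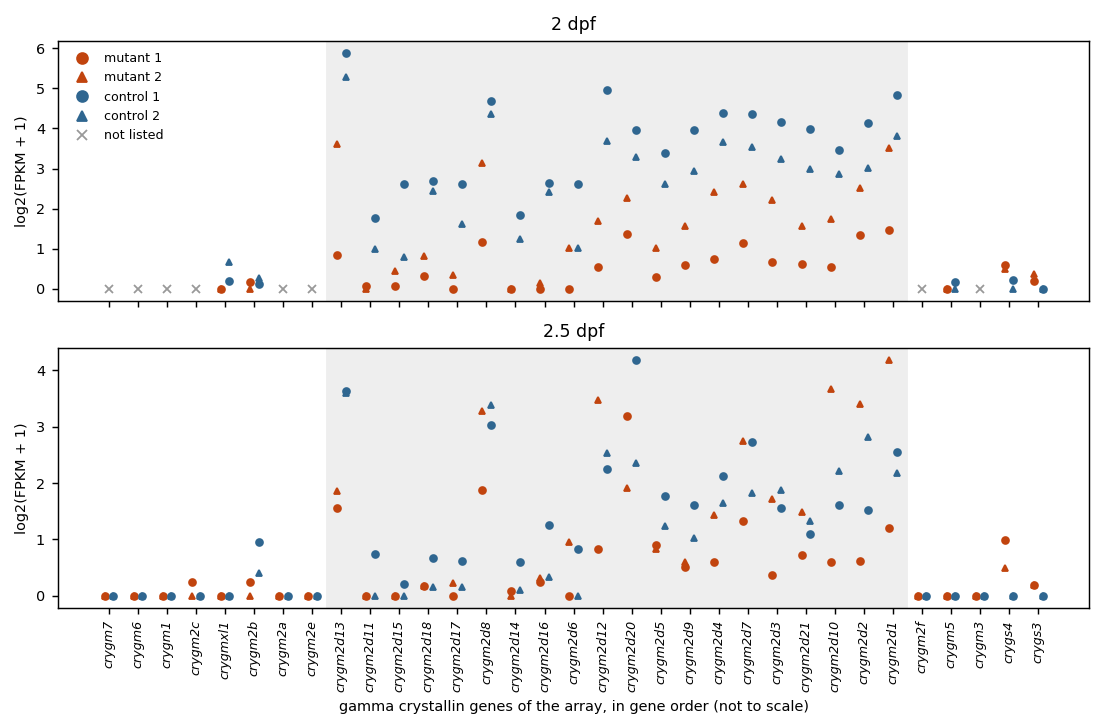
log2(FPKM + 1) of the gamma crystallin genes of chromosome 9 in gene order (x axis, not to scale), at 2 dpf (top) and 2.5 dpf (bottom), with a point for each library, mutants in red left of controls in blue, and crosses for identifiers not listed. The middle stretch of 20 members (shaded) holds the levels up to 58.45 FPKM, and the genes on either side stay below 1 FPKM.

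From 2 to 2.5 dpf the crystallins fell in controls. The sum was 144 and 233 FPKM in controls of 2.5 dpf, against 689 and 462 FPKM in controls of 2 dpf. limma called 21 of 34 members tested lower at 2.5 dpf and 0 higher, where it called 2.48% of all 16321 genes lower and 19.1% higher. The median log2 fold change of the members was −1.48, with 33 of 34 below 0, and that of all genes was 0.44, with 14.6% below 0. At an unadjusted p under 0.05 there were 32 members, and 44.6% of all genes tested. Median-ratio rescaling put these medians at −2.02 and −0.02. Of the 34 tested members, 31 had both libraries of 2.5 dpf below both libraries of 2 dpf and 1 had them above, where the shares over all genes tested were 7.54% and 66.2%. Of all 46 members in both tables, 32 had them below and 2 above. By family, limma called 2 of 6 beta A, 2 of 3 beta B, 16 of 22 gamma M, and 1 of 2 gamma N members lower. Here too, members high at only 1 stage could pass the filter. Of the other lens genes described further below, limma called 1 of 19 tested lower and 4 higher, with a median log2 fold change of 0.28. The 6 lens fibre genes called lower in mutants at 2 dpf had log2 fold changes of −0.89 to −0.24 between these stages, and none was called. The 2 stages come from separate tables, and stage and table cannot be told apart. The comparison uses the same 2 dpf controls as the comparison of mutants with controls at 2 dpf, so that the 2 results are not independent. Calls were lost without either of these controls, where the remaining one took its spread from the other group. The members' median was −1.25 without replicate 1, against 0.43 over all genes tested, and −1.83 without replicate 2, against 0.44. Without the filter limma called 0 members and 0 of 24996 genes, with 31 members and 8502 genes at an unadjusted p under 0.05. There 44 members had a median of −1.4, with 41 below 0. In the fit of all 8 libraries it called 13 of 33 members and 5671 of 16703 genes.

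The largest difference between the stages in controls was that of *crygm2d21*, at 1.14 and 1.51 FPKM at 2.5 dpf, against 14.84 and 6.9 FPKM at 2 dpf (log2 fold change −2.27, standard error 0.35, limma adjusted p = 0.021). *crygm2d13* was at 11.45 and 11.09 FPKM at 2.5 dpf, against 58.45 and 38.16 FPKM at 2 dpf (log2 fold change −1.98, standard error 0.25, limma adjusted p = 0.017). *cryba4* was at 9.15 and 19.56 FPKM at 2.5 dpf, against 42.62 and 33.05 FPKM at 2 dpf (log2 fold change −1.42, standard error 0.36, limma adjusted p = 0.0424). *crygn2*, at 12.35 and 28.47 FPKM at 2.5 dpf and 62.49 and 45.54 FPKM at 2 dpf, was called (log2 fold change −1.45, standard error 0.39, limma adjusted p = 0.0488), and *crybb1*, at 23.5 and 58.44 FPKM at 2.5 dpf and 115.79 and 93.3 FPKM at 2 dpf, was just outside the threshold (log2 fold change −1.46, standard error 0.41, limma adjusted p = 0.0536). *crygm2d20* differed less between the stages, at 17.25 and 4.1 FPKM at 2.5 dpf, against 14.55 and 8.71 FPKM at 2 dpf (log2 fold change −0.35, standard error 0.59, limma adjusted p = 0.655), and its fold change was 0.57 without control replicate 2 of 2.5 dpf. The 1 member above 0 was *cryabb*, at 1.28 and 1.17 FPKM at 2.5 dpf, against 0.66 and 0.45 FPKM at 2 dpf (log2 fold change 0.52, standard error 0.17, limma adjusted p = 0.0703).

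In mutants no member was called between the stages. The sum was 33.5 and 211 FPKM in mutants of 2.5 dpf, against 37.2 and 147 FPKM in mutants of 2 dpf, and the groups overlapped. limma called 0 of 27 members, with 1 member (*cryabb*) at an unadjusted p under 0.05 (28.3% of all genes tested), whereas it called 0.261% of all 16875 genes lower at 2.5 dpf and 2.54% higher. The median of the members was 0.14 and that of all genes 0.25, and after median-ratio rescaling both were below 0, at −0.12 and −0.03. Without mutant replicate 1 of 2.5 dpf the members' median was 0.85, and without mutant replicate 2 of 2.5 dpf it was −0.81. Of the 27 tested members, 1 had both libraries of 2.5 dpf below both of 2 dpf and 1 had them above, where the shares over all genes tested were 8.38% and 52.2%. Of all 46 members in both tables, 3 had them below and 2 above, and the stages overlapped in 41.

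Whether the mutant-minus-control difference changed with stage was tested as a genotype by stage interaction in the 8 libraries. limma called 0 of 33 members and 0 of all 16703 genes, and the smallest adjusted p of a member was 0.793. At an unadjusted p under 0.05 there were 9 members, and 5.4% of all genes tested. All 33 members had a log2 interaction above 0, which means a higher mutant-minus-control difference at 2.5 dpf than at 2 dpf, with a median of 1.49, whereas 71.1% of all genes were below 0, with a median of −0.16. The filter used the mean of the same libraries, so that members high only in controls of 2 dpf could pass it, and these signs are a description. Without the filter, 46 members had a median of 1.39, with 4 below 0, against a median of −0.08 over all genes. The calls at 2 dpf and their absence at 2.5 dpf are therefore not shown to differ for any single member.

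Other genes of the lens were measured from a list of 30 symbols, of which 28 were found. At 2 dpf limma called 6 of the 18 tested lower in mutants and 1 higher, with a median log2 fold change of −0.70, and at 2.5 dpf it called 0 of 15, with a median of −0.66. Of all genes tested at 2 dpf, it called 0.997% lower and 2.52% higher. Since the filter used the mean of the same libraries, genes high only in controls could pass it, and these counts are a description. The medians of all genes tested were 0.18 at 2 dpf and 0.02 at 2.5 dpf. Those called lower were the lens water channels *mipa* and *mipb*, the lens fibre membrane proteins *lim2.1*, *lim2.3*, and *lim2.4*, and *grifin*, a galectin-like protein of lens fibres. Each of these 6 calls was lost in at least 1 alternative setting, that of *lim2.1* in the fit of all 8 libraries (limma adjusted p = 0.263). Over the alternatives the log2 fold change was −2.81 to −0.99 for *mipb*, −1.69 to −0.92 for *grifin*, and −1.5 to −0.97 for *lim2.1*. It was −2.04 to −0.81 for *lim2.3*, −2.11 to −0.81 for *lim2.4*, and −2.27 to −0.73 for *mipa*. *mipb* was at 0.18 and 0.14 FPKM in mutants, against 2.25 and 1.31 FPKM in controls, at 2 dpf (log2 fold change −1.24, standard error 0.20, limma adjusted p = 0.0311). *grifin* was at 0.59 and 0.74 FPKM in mutants, against 2.6 and 2.14 FPKM in controls (log2 fold change −1.02, standard error 0.17, limma adjusted p = 0.0336). *lim2.1* was at 1.67 and 1.36 FPKM in mutants, against 5.01 and 3.92 FPKM in controls (log2 fold change −1.12, standard error 0.19, limma adjusted p = 0.0371). These genes were low compared with the main crystallins. The values of *mipa* were 0.07 and 0.17 FPKM in mutants, against 0.91 and 0.96 FPKM in controls, those of *lim2.3* were 0.18 and 0.36 FPKM in mutants, against 1.43 and 1.33 FPKM in controls, and those of *lim2.4* were 0.25 and 0.32 FPKM in mutants, against 1.92 and 1.25 FPKM in controls. At 2.5 dpf *mipa*, *mipb*, and *grifin* again had both mutant libraries below both control libraries, as for *grifin* with 0.16 and 0.82 FPKM in mutants, against 0.92 and 3.25 FPKM in controls. Mutant and control values of *lim2.1*, *lim2.3*, and *lim2.4* overlapped there, as for *lim2.1* with 0 and 2.41 FPKM in mutants, against 1.32 and 2.69 FPKM in controls.

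The transcription factor gene *pitx3*, required for lens development in mice and zebrafish, was the 1 lens gene called higher. It was at 8.04 and 5.87 FPKM in mutants, against 2.78 and 2.55 FPKM in controls, at 2 dpf (log2 fold change 1.11, standard error 0.20, limma adjusted p = 0.0429), and at 10.01 and 8.66 FPKM in mutants, against 3.62 and 3.21 FPKM in controls, at 2.5 dpf. The call at 2 dpf was lost after median-ratio rescaling (log2 fold change 0.89, limma adjusted p = 0.0815), after quantile normalization, without the filter, and with any 1 library left out, and over the 12 alternatives the limma adjusted p was 0.035 to 0.228. *pitx3* is also expressed outside the lens. The 6 genes of the list with the highest mean over the 8 libraries were *six3b*, *lim2.2*, *sox1a*, *six3a*, *sox1b*, and *pax6a*, from 17.2 down to 6.18 FPKM, and limma called none of them at 2 dpf. All except *lim2.2* encode transcription factors of the eye that are also used in the brain. *six3b* was at 13.77 and 12.97 FPKM in mutants, against 17.62 and 10.78 FPKM in controls, and *lim2.2* at 8.33 and 9.34 FPKM in mutants, against 4.89 and 9.36 FPKM in controls. In *six3a*, at 6.02 and 5.8 FPKM in mutants, against 8.97 and 4.02 FPKM in controls, and in *sox1b*, at 7.67 and 7.06 FPKM in mutants, against 8.35 and 5.58 FPKM in controls, the mutants lay between the controls. *sox1a* was at 6.95 and 6.95 FPKM in mutants, against 6.89 and 4.53 FPKM in controls. *pax6a* was at 2.93 and 2.98 FPKM in mutants, against 8.27 and 5.16 FPKM in controls. Some structural genes of lens fibres were near 0, with the fibre gap junction genes *gja3* and *gja8b* at no more than 0.12 FPKM, the beaded filament gene *bfsp2* at no more than 0.38 FPKM, and the lens heat shock factor gene *hsf4* at 0 in all 8 libraries. Another gap junction gene of lens fibres, *gja8a*, was at 0.15 and 0.2 FPKM in mutants, against 0.1 and 0.07 FPKM in controls, at 2 dpf, and at 0.13 and 0.36 FPKM in mutants, against 0.12 and 0 FPKM in controls, at 2.5 dpf, under the filter of the test. *foxe3*, also under the filter, was at 0.23 and 0.59 FPKM in mutants, against 0.14 and 0.19 FPKM in controls, at 2 dpf. *lim2.5*, under it too, was at 0.17 and 0.11 FPKM in mutants, against 0.94 and 0.7 FPKM in controls, at 2 dpf.

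**Figure D5:**
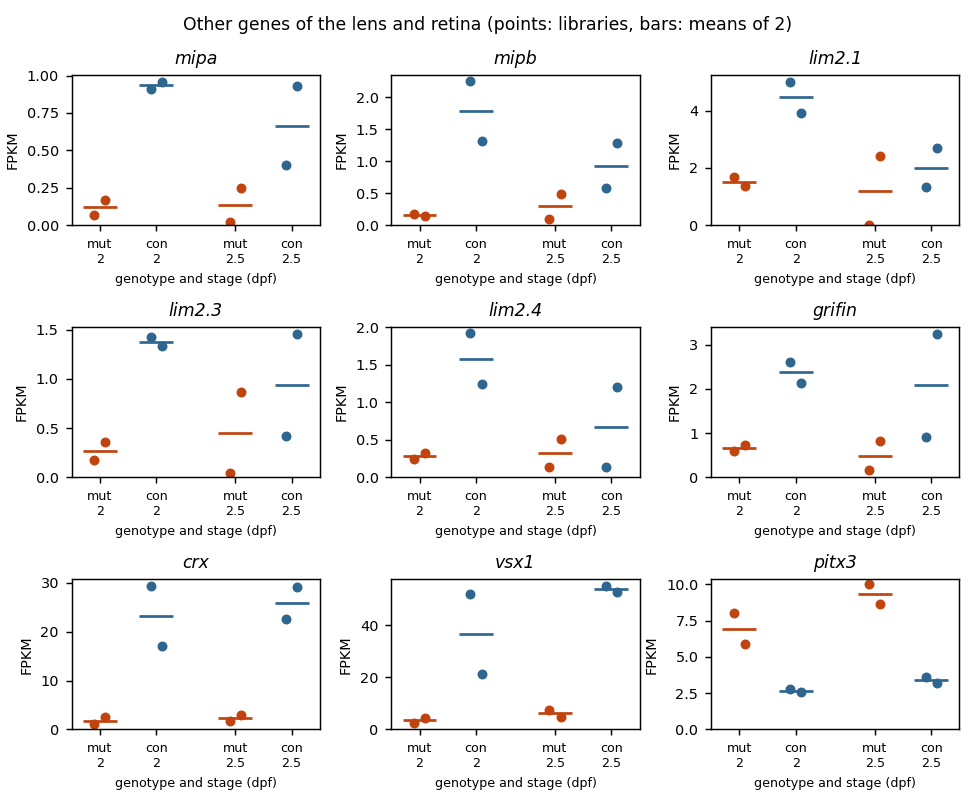
FPKM of 6 lens fibre genes, the retinal genes *crx* and *vsx1*, and *pitx3*, with a point for each library and a bar for the mean of 2, mutants in red left of controls in blue, for 2 dpf (left pair) and 2.5 dpf (right pair) on y axes from 0. The mutant points lie below the control points at 2 dpf in all panels except that of *pitx3*, where they lie above, and for *crx* and *vsx1* they lie as far below at 2.5 dpf.

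Markers of some other cell types that the sort could hold moved with genotype or stage too. Retinal markers, another tissue of the eye, summed to 19.1 and 22.2 FPKM in mutants, against 105 and 52.7 FPKM in controls, at 2 dpf, and to 24.6 and 43.3 FPKM in mutants, against 108 and 129 FPKM in controls, at 2.5 dpf. At 2 dpf limma called 3 of the 9 tested of 13 lower (*crx*, *otx5*, and *vsx1*) and 1 higher (*opn1sw2*), and the photoreceptor gene *prph2a* was at no more than 0.18 FPKM. The shares of all genes called at 2 dpf were 0.997% lower and 2.52% higher. *crx*, a transcription factor gene of photoreceptors and their precursors, was at 1.18 and 2.45 FPKM in mutants, against 29.41 and 17.04 FPKM in controls, at 2 dpf (log2 fold change −3.09, standard error 0.33, limma adjusted p = 0.0104). This call was lost without the filter (limma adjusted p = 0.0696). It was also lost without either control replicate, with log2 fold changes of −2.72 without replicate 1 and −3.47 without replicate 2. The values of *crx* at 2.5 dpf were 1.73 and 2.9 FPKM in mutants, against 22.7 and 29.2 FPKM in controls, so that both mutant libraries were low. Not all retinal markers shared this pattern. The retinal marker *rho* was at 0.04 and 5.68 FPKM in mutants, against 5.61 and 9.63 FPKM in controls, at 2.5 dpf. At 2.5 dpf limma called 0 of the 11 retinal markers tested, *crx* among them (log2 fold change −3.04, standard error 0.26, limma adjusted p = 0.058). Red blood cell markers summed to 4192 and 5680 FPKM in mutants, against 17937 and 11755 FPKM in controls, at 2 dpf, where limma called 5 of 6 lower. At 2.5 dpf they summed to 6629 and 2383 FPKM in mutants, against 3888 and 2309 FPKM in controls. White blood cell markers summed to 14843 and 23538 FPKM in mutants, against 39107 and 40288 FPKM in controls, at 2 dpf, with 0 of 4 called by limma and 3 at an unadjusted p under 0.05. Most of each sum was *lyz*, at 14566.48 and 23084.76 FPKM in mutants, against 38526.23 and 39655.51 FPKM in controls. At 2.5 dpf the white blood cell sums overlapped between genotypes, at 12138 and 12261 FPKM in mutants, against 13424 and 9315 FPKM in controls. Between the stages in controls, limma called 6 of 6 red blood cell, 5 of 5 skeletal muscle, and 3 of 4 white blood cell markers lower at 2.5 dpf, where it called 2.48% of all genes tested lower. It called 2 of 2 otic, 2 of 6 neural crest, 2 of 11 retinal, and 1 of 5 pigment cell markers higher and 0 of these lower. The share of all genes tested called higher was 19.1%, and 0 of 5 skin markers were called. The red cell sum ranked the 4 libraries of 2 dpf in the same order as the crystallin sum, with control replicate 1 highest. In mutants of 2.5 dpf the red cell sum was higher in replicate 1 than in replicate 2, and the crystallin sum was lower in replicate 1. By genotype, limma called 0 of 5 skin, 0 of 5 pigment cell, 0 of 3 otic, 0 of 5 skeletal muscle, and 0 of 6 neural crest markers tested at either stage. At an unadjusted p under 0.05 there were 0 skin, 0 pigment cell, 2 otic, 2 skeletal muscle, and 2 neural crest markers at 2 dpf, and 0, 0, 3, 3, and 2 of the same lists at 2.5 dpf. Of all genes tested, 24.6% had such a p at 2 dpf and 12.2% at 2.5 dpf. The part of these cell types in the crystallin differences was not tested.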

How the data were processed

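SMART-seq was performed on *sox10*+ cells sorted from dissociated embryos, with dead cells removed by a dye, in 8 libraries of 4 groups. From fragmented SMARTer cDNA the authors obtained paired-end reads, mapped them to GRCz11 by HISAT, built transcripts by StringTie, and deposited FPKM values per gene, rounded to 2 decimals, in a separate table for each stage. The processing notes of the submitters also name edgeR. The versions of these tools are not given in the sources used here. Oligo(dT) priming, PCR, and the division of reads between gene copies can affect levels, and the number of reads behind a value is unknown.

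The FPKM values were used as scaled by the authors. Mutants and controls within a stage, the stages within a genotype, and the interaction were compared by limma 3.58.1 in R 4.3.3 (lmFit and eBayes, trend on) using log2(FPKM + 1) as the response. Genes averaging under 0.5 FPKM in the libraries of a fit were left out, p was adjusted by Benjamini-Hochberg over every gene left, and 0.05 was the threshold. A fold change on this scale understates the change of low genes. The method was also run on simulated data, in which only genes of higher level than most crystallins were changed. That run therefore does not cover the low members. No count model was used. Sums over members were taken in pandas. Gene order came from a RefSeq annotation of GRCz12tu, and no positions are given.

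Genes named with their values at 2 dpf are the alpha crystallins, the 3 of highest mean in each other family, the 8 called members of largest fold change without overlap, members that went against the family, identifiers of shared symbols, and of other lens genes the 6 of highest mean and those called. The members, lists, and this rule were chosen with earlier results of these data known. *crygm2d20*, *crygm2d5*, *crygm2d4*, *crygm2d10*, and the low or unlisted members were named after their values were seen. The alternatives tried were no filter or one at 2 FPKM, a pseudocount of 0.1, quantile normalization or median-ratio rescaling, eBayes without the trend, a replicate block, 1 fit of all 8 libraries, and each library left out. Promoter motifs were not analysed here.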

Additional observations from a re-analysis of the deposited data

How the results depend on the processing

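In the comparison of mutants with controls at 2 dpf, limma called 544 of all genes and 18 crystallins, and the alternatives gave 9 crystallins, with a median of −3.03, for a pseudocount of 0.1, 47 genes and 1 crystallin without the filter, 236 and 7 after quantile normalization, and 293 and 7 in the fit of all 8 libraries. With each library left out, 0 to 227 genes and 0 to 25 crystallins were called and the members' median was −2.81 to −1.60. A group left with 1 library took its spread from the other group. At 2.5 dpf, limma called 28 genes with a filter at a mean of 2 FPKM and 249 in the fit of all 8 libraries, with 0 crystallins in either, and the members' median was −1.33 to 0.04 with each library left out. Between the stages in controls, 3517 genes and 21 crystallins were called, against 0 and 0 without the filter, 2242 genes with the filter at 2 FPKM, 993 genes with a members' median of −2.02 after median-ratio rescaling, 526 genes after quantile normalization, 5671 genes and 13 crystallins in the fit of all 8 libraries, and 0 to 3424 genes and 0 to 23 crystallins with each library left out. Between the stages in mutants, 473 genes were called, against 8 without the filter, 58 after median-ratio rescaling, 18 after quantile normalization, 1622 in the fit of all 8 libraries, and 0 to 5 with each library left out. For the interaction, 1 gene was called with a pseudocount of 0.1 and 0 to 1 with each library left out. The cause of these shifts was not tested. The summed mutant level was 6.47 to 25.5% of controls at 2 dpf and 17.8 to 112% at 2.5 dpf with each library left out, and 13.2% and 64.1% after median-ratio rescaling.

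Of single genes, *cryabb* at 2 dpf had a log2 fold change of −0.03 after median-ratio rescaling, −0.10 after quantile normalization, and −0.06 to 0.18 with each library left out. With each library left out, that of *crybb1* at 2.5 dpf was −4.07 to 0.23, that of *crygn2* at 2.5 dpf was −2.19 to 0.53, and that of *crygm2d20* between the stages in controls was −1.27 to 0.57. The highest value came without mutant replicate 1 of 2.5 dpf for *crybb1* and *crygn2* and without control replicate 2 of 2.5 dpf for *crygm2d20*.

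The replicate numbers have no stated meaning, and deviations from the group means correlated by 0.144 between same-numbered libraries at 2 dpf, 0.371 at 2.5 dpf, −0.130 between the stages in controls, and −0.111 in mutants. With the replicate block limma called 830 genes and 19 crystallins at 2 dpf, 738 genes and 3 crystallins (*cryba2b*, *crygm2d13*, and *crygmx*) at 2.5 dpf, 1113 genes and 17 crystallins between the stages in controls, and 4 genes and 0 crystallins in mutants. Promoter motifs were not run. The depth behind low values is unknown, which limits the members under 0.5 FPKM most.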
